A study of Drosophila melanogaster with 6 samples.

Results

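The genes described here encode the mitochondrial respiratory chain and ATP synthase in male Drosophila melanogaster larvae. They are the nuclear genes whose array annotation symbol starts with ND-, Sdh, UQCR-, COX and a digit, ATPsyn or Cyt-c, with chromosome 4 left out. This rule found 74 genes among 11983 gene rows on the array. Of the 74, 41 are subunit genes on autosomes and 10 are subunit genes on the X. A further 22 are paralogs whose symbols end in L, or in L and a digit, called testis-type paralogs here, and 1, Sdhaf3, is an assembly factor of complex II. ND-MNLL also ends in L but is a complex I subunit and not a paralog. No gene row for the soluble electron carrier cytochrome c was among those the rule found. The rule reads symbols and chromosomes and no expression value, but this gene family was taken up with earlier results of these data known.

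Expression was measured on 6 one-colour arrays, with 3 arrays of mutants (yw/Yy+;msl21/msl21) and 3 of controls (yw/Yy+;msl21/+), all from male larvae in the last instar. Both groups carry the yw X, the Y with y+ and at least 1 copy of the msl21 allele, so the controls are heterozygous rather than wild type, although their titles say wt. The allele is a single chemically (EMS) induced one. The replicate is an independently prepared RNA of 50 or more larvae pooled, on 1 array each. MSL2 is a subunit of the complex that raises expression of the single X chromosome of males, and the series asks whether X-linked and autosomal genes need it.

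The respiratory chain passes electrons from NADH (complex I) and succinate (complex II) through ubiquinone, complex III and cytochrome c to oxygen at complex IV. Complexes I, III and IV pump protons across the inner mitochondrial membrane, and ATP synthase (complex V) uses the returning protons to make ATP. Each complex except II joins subunits made from nuclear genes with subunits made from mitochondrial DNA, so nuclear genes on different chromosomes supply parts of the same particles. Drosophila also has duplicated copies of many of these genes that are used mainly in the testis, where the mitochondria of developing sperm are rebuilt.

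All values are log2 expression values, and differences are the mutant mean minus the control mean. The mRNA of msl-2 itself had 5.39, 5.21 and 4.73 in the mutants, against 5.18, 5.14 and 4.86 in the controls. These values lie among the dimmest 25% of genes and do not check a chemically induced allele. The median SD per gene was larger among the mutants, 0.284 against 0.148 among the controls. In mutant replicate 1 the salivary glue markers were far below the other arrays (median -6.80 from the control mean). Mutant replicate 2 had the smallest excess of 3' over 5' signal in the control probe sets, 1.33, against 2.19 and 1.88 in the other mutant arrays and 1.80 to 1.95 in the controls. As RMA sets the arrays to a like distribution, every difference is relative to the rest of the genes.

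The mutant mean lay below the control mean for 71 of the 74 genes. The median difference was -0.29, against 0.00 over all gene rows. No gene passed a limma adjusted p of 0.05 over all gene rows in either direction. Over all gene rows 0.0167% passed as lower and 0% as higher. At an unadjusted limma p under 0.05, 16 of the 74 were lower, against 4.66% of all gene rows, and 0 were higher, against 3.86%. The groups did not overlap, with the mutants lower, for 34 of the 74, against 7.29% of all gene rows, and with the mutants higher for 0, against 6.59%.

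The 3 sets of genes differed in size and in pattern. X-linked subunits had a median difference of -0.59 (from -0.79 to -0.28), a factor of 0.664. Autosomal subunits had -0.21 (from -0.39 to 0.14), a factor of 0.863, and the testis-type paralogs -0.45 (from -0.88 to 0.02). Groups did not overlap for 9 of 10 X-linked subunits, 22 of 41 autosomal subunits and 3 of 22 paralogs, all of them lower in the mutants. Other genes of the brightest 25%, where 48 of the 51 subunits lie, give a closer comparison, though not one of equal brightness. In that range the X-linked subunits had a median level of 11.04 and the autosomal subunits 12.07. The other genes there were dimmer, at 9.55 on the X and 9.54 on the major autosomes. On the X, 33.6% of 336 such genes were without overlap and lower and 1.19% higher, and 28.6% and 2.08% passed an unadjusted p of 0.05 in these directions; 9 of the 10 X-linked subunits passed it as lower. On the major autosomes, 7.05% of 2583 such genes were without overlap and lower and 7.67% higher, and 3.25% and 3.76% passed an unadjusted p of 0.05.

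**Figure D1:**
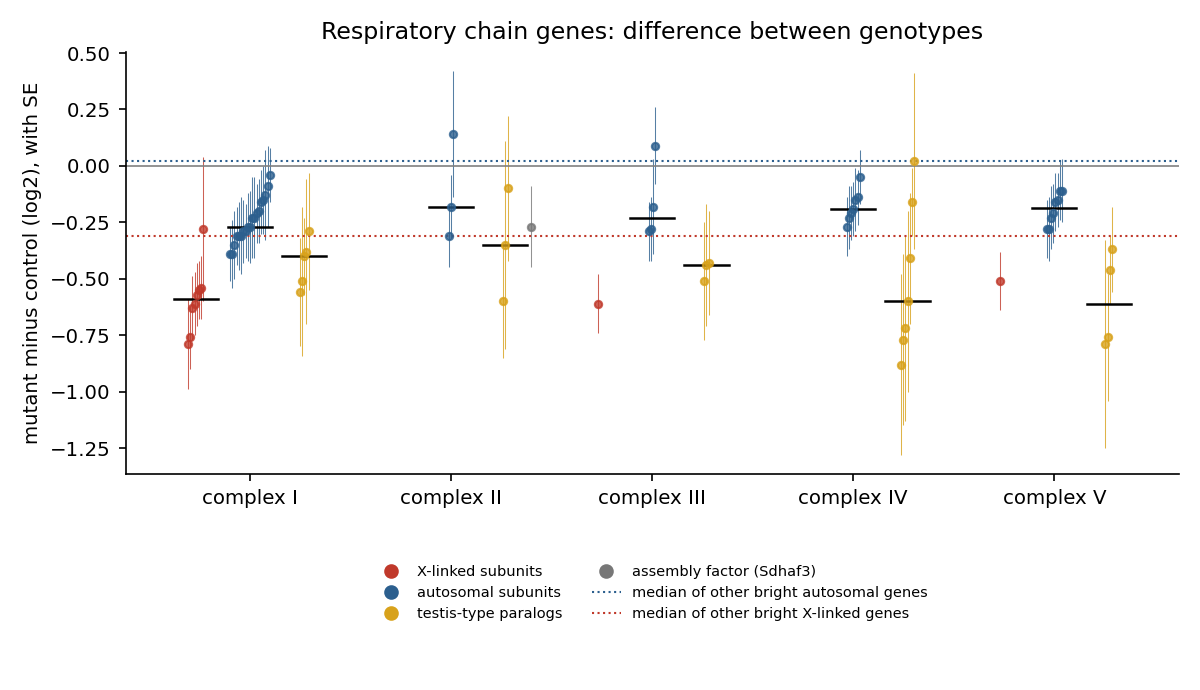
The vertical axis gives the mutant minus control difference (log2) of each gene with its standard error from limma, by complex along the horizontal axis, and black bars are medians of sets with more than 1 gene. The X-linked subunits of complex I have a median of -0.59 and its autosomal subunits -0.27. Dotted lines mark the medians of the other genes of the brightest 25%, at -0.31 on the X and 0.02 on the autosomes.

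Complex I, which oxidises NADH, has 27 subunit genes here, and all 27 had a difference below 0. Its 8 X-linked members had a median of -0.59 and its 19 autosomal members -0.27. Complex I is L-shaped, with a matrix arm that carries the electrons and a membrane arm that pumps protons; the placement of subunits used here is that known from mammals. Of its X-linked members, the 4 of the matrix arm had a median of -0.56 and the 4 of the membrane arm -0.62. Among the autosomal members these medians were -0.20 for 7 genes of the matrix arm and -0.29 for 10 of the membrane arm.

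In the membrane arm, the X-linked accessory subunit ND-ASHI (gene ID 31604) had 10.52, 10.41 and 10.69 in the mutants, against 11.30, 11.39 and 11.23 in the controls. The nearest mutant and control values were 0.54 apart, the widest gap among the 74 genes, with a difference of -0.76 (SE 0.14, limma adjusted p = 0.25). ND-B18, also an accessory subunit of this arm, had 10.75, 10.53 and 10.79 in the mutants and 11.35, 11.36 and 11.25 in the controls. Its difference was -0.63 (SE 0.14, limma adjusted p = 0.316). ND-MNLL had 11.04, 10.79 and 11.12 in the mutants and 11.60, 11.63 and 11.55 in the controls, a difference of -0.61 (SE 0.14). ND-B16.6 had 10.67, 10.59 and 10.88 in the mutants and 11.29, 11.31 and 11.16 in the controls, a difference of -0.54 (SE 0.14). In all 4 genes mutant replicate 2 was the lowest array and the groups did not overlap.

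In the matrix arm, ND-20, a core iron-sulfur subunit next to the ubiquinone site, had 10.93, 11.10 and 11.16 in the mutants, against 11.58, 11.70 and 11.57 in the controls. The groups were 0.41 apart and the difference was -0.55 (SE 0.13, limma adjusted p = 0.349). ND-18, an accessory subunit of the NADH-oxidising end, had 9.97, 9.78 and 10.02 in the mutants, against 10.49, 10.63 and 10.38 in the controls. Its difference was -0.57 (SE 0.14). ND-B14.5A, another accessory subunit, had 10.29, 10.80 and 10.97 in the mutants and 11.48, 11.55 and 11.40 in the controls. This was the X-linked subunit with the most negative difference, -0.79 (SE 0.20, limma adjusted p = 0.373), and mutant replicate 1 lay well below the other mutant arrays. ND-75, the core iron-sulfur subunit with the largest set of clusters, was the exception among X-linked subunits. It had 9.48, 8.82 and 9.01 in the mutants and 9.87, 9.51 and 8.76 in the controls, so the groups overlapped, with a difference of -0.28 (SE 0.32). The control arrays of ND-75 differed by more than 1 log2 unit among themselves.

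**Figure D2:**
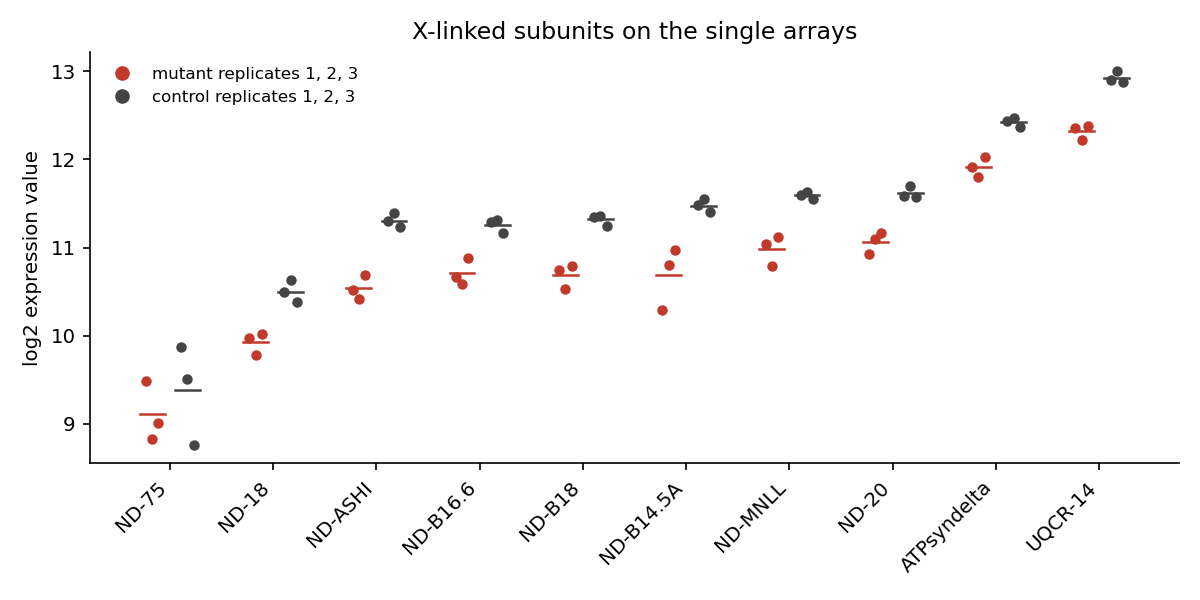
Points give the log2 expression value of each of the 10 X-linked subunits on the single arrays, mutant replicates 1 to 3 left and control replicates 1 to 3 right within each gene, and lines give the group means. The groups are apart in 9 genes, by 0.28 to 0.54 at the nearest values, and overlap in ND-75.

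Outside complex I, 2 further subunits are X-linked. UQCR-14 (gene ID 32586), a small subunit of complex III, had 12.36, 12.22 and 12.38 in the mutants, against 12.90, 13.01 and 12.88 in the controls. The groups were 0.50 apart and the difference was -0.61 (SE 0.13, limma adjusted p = 0.296). ATPsyndelta (gene ID 31950), part of the central stalk that turns in ATP synthase, had 11.92, 11.80 and 12.03 in the mutants and 12.44, 12.47 and 12.37 in the controls. Its difference was -0.51 (SE 0.13, limma adjusted p = 0.382), with 0.34 between the nearest values. Both thus lie within the range of the X-linked subunits of complex I.

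Within each array, the X-linked subunits stood to the autosomal ones much as other bright X-linked genes stood to other bright autosomal genes. After centring of each gene, the subunits' X median minus their autosomal median came to -0.24, -0.15 and -0.12 on the mutant arrays and 0.16, 0.21 and 0.20 on the control arrays. The group means were -0.17 ± 0.06 and 0.19 ± 0.03 (SD, n = 3 each), a difference of -0.36. For the other genes of the brightest 25%, 336 on the X and 2583 on the major autosomes, the means were -0.17 ± 0.09 (mutants) and 0.16 ± 0.02 (controls), a difference of -0.33. No test of this value is given, since the family was taken up with earlier results known.

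**Figure D3:**
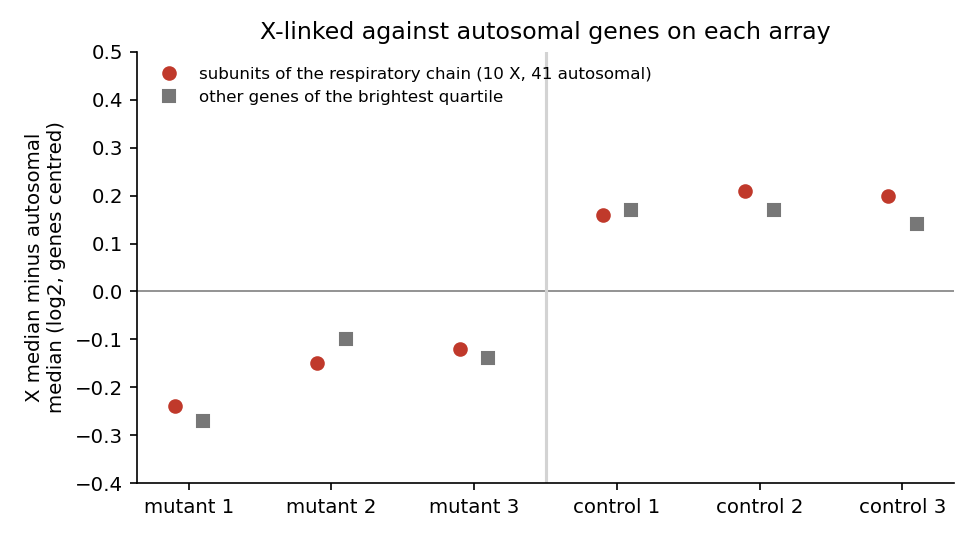
The vertical axis gives the median of X-linked genes minus that of autosomal genes (log2, each gene centred on its mean over 6 arrays) for every array along the horizontal axis. Circles, for the respiratory chain subunits, lie between -0.24 and -0.12 in the mutants and between 0.16 and 0.21 in the controls, and squares, for other genes of the brightest 25%, lie close to them.

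The autosomal subunits, unlike other bright autosomal genes, had differences mostly below 0. Of the 41 autosomal subunits, 39 were below 0, with a median of -0.21, and for the 38 of them in the brightest 25% of genes the median was -0.22. Over the 2583 other autosomal gene rows of the brightest 25% the median was 0.02 and 46.6% were below 0. These rows were dimmer than the 38 subunits, with a median level of 9.54 against 12.07. Genes of equal brightness were not compared. Subunits on each major autosomal arm had a median below 0, with -0.21 on 2L (11 genes), -0.28 on 2R (8 genes), -0.18 on 3L (11 genes) and -0.21 on 3R (11 genes). At an unadjusted limma p under 0.05, 3 of the 41 were lower, against 4.66% of all gene rows, and 0 higher, against 3.86%. The limma adjusted p values were between 0.494 and 0.946. No single autosomal subunit thus passed the adjusted threshold. For 22 of the 41 the groups did not overlap, with the mutants lower, against 7.29% of all gene rows.

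Mutant replicate 2 lay furthest below the controls. Their median distance from the control mean came to -0.14 (mutant replicate 1), -0.37 (replicate 2) and -0.17 (replicate 3), against 0.04, 0.03 and -0.07 for the controls. Mutant replicate 2 was the lowest mutant array for 38 of the 41 genes, and control replicate 3 the lowest control array for 34. Without mutant replicate 2 the median difference of the autosomal subunits was -0.14 and 36 of 41 were below 0. Mutant replicate 2 also had the lowest 3' to 5' difference, and the part of RNA quality in the result was not tested. Body wall muscle markers, from a tissue rich in mitochondria, had a median difference of -0.15 (8 of 10 below 0), with array medians of -0.18, -0.05 and -0.14 for the mutants and 0.22, -0.06 and -0.14 for the controls. They were thus not lowest in mutant replicate 2, and their part in the result was not tested either. In whole larvae fewer cells of a type and less RNA per cell cannot be told apart.

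Among the autosomal subunits of complex I, ND-15 of the membrane arm (2L) had 10.98, 11.11 and 11.02 in the mutants, against 11.44, 11.46 and 11.39 in the controls. With 0.28 between the groups and a difference of -0.39 (SE 0.12), it had the smallest limma adjusted p of the autosomal subunits, 0.494. ND-19, of the same arm (2R), had 10.88, 10.53 and 10.82 in the mutants and 11.17, 11.18 and 11.04 in the controls, a difference of -0.39 (SE 0.15). ND-B17.2 of the matrix arm (2L) had 11.19, 11.14 and 11.24 in the mutants and 11.53, 11.50 and 11.41 in the controls, a difference of -0.29 (SE 0.12). ND-PDSW of the membrane arm (2L) had 11.61, 11.44 and 11.60 in the mutants and 11.92, 11.92 and 11.73 in the controls, a difference of -0.31 (SE 0.13). In these 4 genes the groups did not overlap. The brightest probe set of the complex was that of ND-MLRQ (3L), a subunit first assigned to complex I and in mammals since placed with complex IV. It had 13.37, 13.38 and 13.28 in the mutants and 13.38, 13.35 and 13.42 in the controls, with a difference of -0.04 (SE 0.12).

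Complex II, succinate dehydrogenase, is part of both the respiratory chain and the citric acid cycle, and 3 of its subunit genes were measured, none on the X. SdhB, the iron-sulfur subunit (2R), had 11.14, 10.62 and 10.97 in the mutants and 11.30, 10.72 and 10.30 in the controls. Its difference of 0.14 (SE 0.28) was the only one of the autosomal subunits above 0 besides UQCR-11, and its control arrays spanned a whole log2 unit. The membrane anchors SdhC and SdhD (both 3R) had differences of -0.18 (SE 0.14) and -0.31 (SE 0.14). For SdhD the values were 10.88, 10.79 and 11.05 in the mutants and 11.25, 11.31 and 11.10 in the controls, just without overlap, and those of SdhC overlapped. The assembly factor Sdhaf3 (3R) had 7.96, 7.35 and 7.64 in the mutants and 7.95, 7.96 and 7.85 in the controls, a difference of -0.27 (SE 0.18).

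Complex III, which passes electrons from ubiquinone to cytochrome c, has 4 autosomal subunit genes here, with a median of -0.23. UQCR-Q (3L) had 10.04, 9.89 and 10.05 in the mutants and 10.34, 10.22 and 10.31 in the controls, a difference of -0.29 (SE 0.13). UQCR-6.4 (2R) had 12.84, 12.49 and 12.69 in the mutants and 13.00, 12.94 and 12.92 in the controls, a difference of -0.28 (SE 0.14). Both are small subunits, and in both the groups did not overlap. Cyt-c1 (3L), the cytochrome that hands electrons to cytochrome c, had 12.17, 11.50 and 12.04 in the mutants and 12.22, 12.12 and 11.91 in the controls. Its difference of -0.18 (SE 0.21) rested on mutant replicate 2 and was 0.02 without that array. The probe set of UQCR-11 (3L) was among the dimmest 25% of genes, and its difference was 0.09 (SE 0.17).

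Complex IV, cytochrome c oxidase, is represented by 7 autosomal subunit genes, all with bright probe sets and all with a difference below 0. Their median was -0.19 and the range -0.27 to -0.05. COX8 (3L) had 12.74, 12.49 and 12.71 in the mutants and 12.92, 12.97 and 12.85 in the controls, a difference of -0.27 (SE 0.13). COX7C (2R) had 12.58, 12.46 and 12.60 in the mutants and 12.75, 12.78 and 12.74 in the controls, a difference of -0.21 (SE 0.12). For COX5B (2L) and COX7A (3R) the differences were -0.23 (SE 0.14) and -0.19 (SE 0.12). Groups did not overlap for 5 of the 7, by 0.03 to 0.13 and with the mutants lower, against 7.29% of all gene rows. COX7B (3L), with the brightest probe set, had a difference of -0.15 (SE 0.14), and mutant replicate 1, at 13.36, reached the control values of 13.42, 13.36 and 13.36.

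The 8 autosomal subunit genes of ATP synthase had a median difference of -0.18, from -0.28 to -0.11. ATPsynE (3R), a membrane subunit at the dimer contact, had 12.54, 12.30 and 12.47 in the mutants and 12.75, 12.73 and 12.67 in the controls, a difference of -0.28 (SE 0.13). ATPsynC (3R), which forms the proton-carrying ring, had 12.80, 12.69 and 12.84 in the mutants and 13.20, 13.08 and 12.87 in the controls, also a difference of -0.28 (SE 0.14). The peripheral stalk genes ATPsynCF6 and ATPsynD (both 3R) had differences of -0.23 (SE 0.14) and -0.21 (SE 0.13). ATPsynF (2R), with the brightest probe set, had -0.15 (SE 0.12). In all 8 genes mutant replicate 2 was the lowest mutant array. The groups did not overlap for 4 of them, with the mutants lower and gaps of 0.01 to 0.13, against 7.29% of all gene rows.

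The testis-type paralogs followed another pattern, low in mutant replicates 1 and 3 and not in mutant replicate 2. Their probe sets were mostly dimmer, with 1 of the 22 in the brightest 25% of all genes, and 12 in the next 25%. This ranks signals on the array and does not compare amounts of mRNA. Their median distance from the control mean came to -0.87 (mutant replicate 1), 0.06 (replicate 2) and -0.59 (replicate 3), against -0.07, -0.17 and 0.23 for the controls. Mutant replicate 1 was the lowest mutant array for 21 of the 22 and mutant replicate 2 the highest for 20. The groups overlapped for 19 of the 22, a share like that over all gene rows, where 10320 of 11983 overlapped.

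COX4L (2R), the paralog of the complex IV subunit gene COX4 and the one with the brightest probe set, had 8.26, 9.90 and 8.79 in the mutants and 9.57, 9.49 and 10.05 in the controls. The difference was -0.72 (SE 0.41, limma adjusted p = 0.633), and mutant replicate 2 lay within the control range. COX5BL (2L), of the same complex, had 7.08, 8.73 and 7.77 in the mutants and 8.67, 8.55 and 9.00 in the controls. Its difference of -0.88 (SE 0.40, limma adjusted p = 0.597) was the most negative of all 74 genes. Cyt-c1L of complex III (3R) had 7.75, 8.56 and 7.89 in the mutants and 8.63, 8.48 and 8.38 in the controls, a difference of -0.43 (SE 0.23). ATPsynepsilonL of ATP synthase (3R) had 7.86, 8.22 and 8.04 in the mutants and 8.61, 8.44 and 8.45 in the controls. It was 1 of the 3 paralogs without overlap, with a difference of -0.46 (SE 0.15, limma adjusted p = 0.508). SdhBL, the only X-linked paralog, had 6.82, 7.66 and 6.54 in the mutants and 7.46, 6.80 and 7.04 in the controls. Its difference was -0.10 (SE 0.32), with mutant replicate 2 the highest of all arrays.

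Testis markers varied over the arrays in the same order as the paralogs. Of the 20 genes measured under the testis and spermatocyte list, 18 had a difference below 0 (median -0.60). List medians by array were -0.96, 0.07 and -0.83 for the mutants and 0.05, -0.17 and 0.14 for the controls. These values include svp (3R, difference 0.48), which entered by symbol matching in place of the listed gene don. It was not chosen as a testis marker. The part of the amount of testis tissue in the paralog result was not tested.

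**Figure D4:**
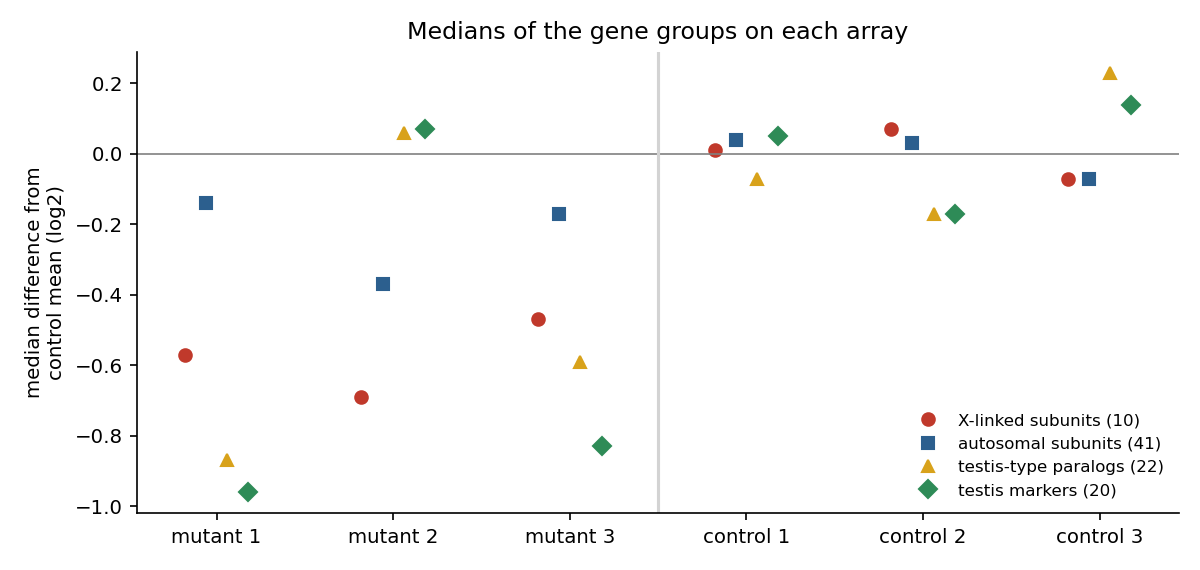
The vertical axis gives, for each array, the median distance from the control mean (log2) over the genes of a set. X-linked subunits lie between -0.69 and -0.47 in the mutants and autosomal subunits between -0.37 and -0.14, whereas the testis-type paralogs (-0.87, 0.06 and -0.59) and the testis markers (-0.96, 0.07 and -0.83) are below the controls in mutant replicates 1 and 3 only. The testis marker set includes svp, which was not chosen as a testis marker.

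The paralogs and the subunits they resemble differed in how they varied within the same RNA samples. For 19 paralogs the corresponding subunit gene was also measured, by the rule, on chromosome 4 or in the list of other subunits. In mutant replicate 1 the paralog was further below its control mean than the corresponding subunit in 18 of the 19 pairs, and in mutant replicate 3 in 15. In mutant replicate 2 the paralog was above and the subunit below its control mean in 12 of 19. COX4 itself lay 0.00, -0.14 and 0.00 from its control mean on the mutant arrays, where COX4L had -1.44, 0.20 and -0.91. Some pairs share a subunit, as ND-51L1 and ND-51L2 do.

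**Figure D5:**
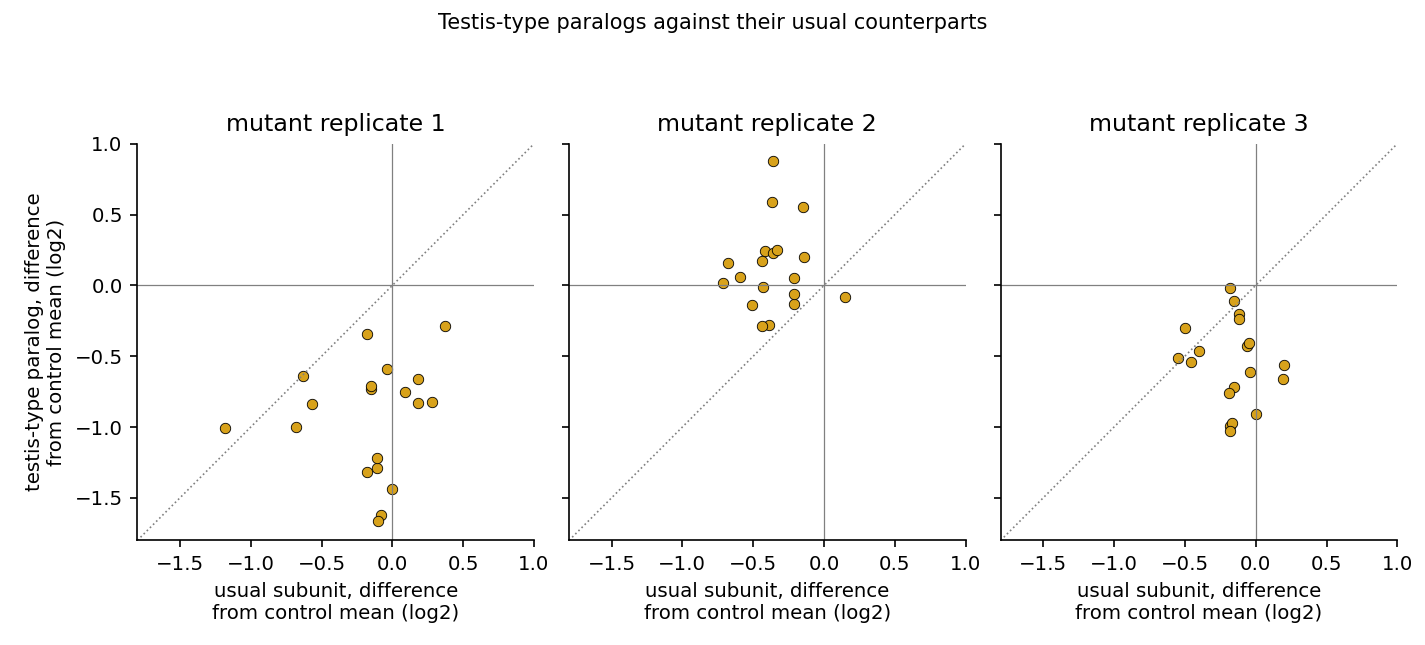
Each point is 1 of 19 testis-type paralogs, with its distance from the control mean (log2) on the vertical axis and that of the corresponding subunit gene, called the usual subunit, on the horizontal axis, in 1 panel for each mutant array; the dotted line marks equal distances. Points lie below the line in 18 pairs for mutant replicate 1 and 15 pairs for mutant replicate 3, and most lie above it for mutant replicate 2.

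Leaving out mutant replicate 2 changed which genes passed the test. Without it 15 of the 74 were lower at a limma adjusted p of 0.05, against 7.91% of all gene rows, and 0 were higher, against 2.8%. They were 5 X-linked subunits, 10 paralogs and 0 autosomal subunits. Mutant replicate 2 was the highest mutant array for 20 of the 22 paralogs and the lowest for 38 of the 41 autosomal subunits. The split between these sets thus depends on which array was left out. The X-linked ones were ND-ASHI, ND-B18, ND-MNLL, ND-20 and UQCR-14, with differences between -0.70 and -0.51 and limma adjusted p values of 0.0295 to 0.0479. The 10 paralogs, of all 5 complexes, had differences between -1.32 and -0.68 and limma adjusted p values of 0.0269 to 0.0496. Among the other genes of the brightest 25%, where 1 of the 22 paralogs lies, 18.8% on the X were lower in that fit and 2.08% higher. On the major autosomes 3.99% were lower and 2.52% higher. When arrays were weighted by their spread instead, 19 members were lower, against 8.45% of all gene rows, and 0 higher, against 3.68%. With any other single array left out, 0 of the 74 passed.

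Subunit genes with other kinds of symbol had differences in the same direction as most members. All 6 of a list of further subunits were below 0, with a median of -0.21. The X-linked gene sun, the epsilon subunit of ATP synthase, had 4.39, 4.63 and 4.63 in the mutants and 5.09, 4.95 and 5.04 in the controls, a difference of -0.48 (SE 0.14), from a dim probe set. The gene ox (2R), a small subunit of complex III, had -0.36 (SE 0.14) and levy (2R), of complex IV, -0.22 (SE 0.13). In these 3 genes and in cype (2L) the groups did not overlap, as in 7.29% of all gene rows with the mutants lower. They overlapped in RFeSP (2L), with a difference of -0.19 (SE 0.19), and in blw (2R), with -0.03 (SE 0.17).

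Other mitochondrial genes were described by list and chromosome, without a test of the difference between chromosomes. Of 19 assembly factors and genes of cofactor supply, 13 were below 0 (median -0.26). The 5 X-linked ones had a median of -0.60, all without overlap, and the 14 autosomal ones -0.10, with 8 below 0 and 2 without overlap. Apart from the members, 330 of 1862 X-linked gene rows were lower without overlap. Of 9888 autosomal gene rows 502 were so, and 45.4% were below 0. Cox17, a copper chaperone for complex IV (X), had 9.64, 9.32 and 9.59 in the mutants and 10.36, 10.32 and 10.30 in the controls, a difference of -0.81 (SE 0.14, limma adjusted p = 0.229). Coq7, of ubiquinone synthesis (X), had -0.78 (SE 0.14), and Coa8 (X) -0.48 (SE 0.13).

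Of 16 carriers, channels and import genes, the 6 X-linked ones had a median of -0.43 and the 10 autosomal ones -0.01. Tim9a and Tim8, small import chaperones of the space between the membranes, had -0.86 (SE 0.16) and -0.65 (SE 0.13), and the ADP/ATP carrier gene Ant2 had -0.59 (SE 0.19); all are X-linked. The list of citric acid cycle and pyruvate entry genes held 27 symbols, of which 13 gave a gene row. Of these 13 genes 10 were below 0, with a median of -0.46 for 2 X-linked and of -0.05 for 11 autosomal genes. Idh3a (X) and Idh3b (3R), which encode subunits of the NAD-dependent isocitrate dehydrogenase, had -0.60 (SE 0.18) and -0.48 (SE 0.16), and Fum2 (X) had -0.33 (SE 0.14). The 14 genes of mitochondrial DNA upkeep, its transcription and regulators of respiratory genes had a median of 0.04. Against 7.29% (lower) and 6.59% (higher) of all gene rows, 0 of the 14 were without overlap. Here mTTF had -0.19 (SE 0.14), the DNA polymerase gene PolG1 0.37 (SE 0.34) and TFAM, which packages mitochondrial DNA, 0.15 (SE 0.16). Autosomal medians were -0.01 for the carriers, -0.05 for the citric acid cycle list and 0.05 for the DNA upkeep list. They stand beside -0.21 for the autosomal subunits. By list median, X-linked genes included, mutant replicate 2 was the lowest mutant array in these lists and among the assembly factors. It lay, in that order, at -0.19, -0.27, -0.22 and -0.57 from the control mean, against -0.37 for the autosomal subunits. Mutant replicate 1 lay at 0.01, -0.02, 0.31 and 0.02, and replicate 3 at -0.06, -0.13, -0.07 and -0.26. Of the genes in these lists 0 passed the limma adjusted p of 0.05.

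By list median, salivary glue and fat body markers followed the same order over the 6 arrays, lowest in mutant replicate 1 and highest in mutant replicate 2. The 7 salivary glue genes had list medians of -6.80, 0.72 and 0.14 on the mutant arrays and -0.24, -0.13 and 0.42 on the control arrays. All 7 overlapped between the groups, as did 10320 of all 11983 gene rows. The 4 measured fat body markers had -1.89, 0.88 and 0.28 on the mutant arrays and -0.22, -0.10 and 0.32 on the control arrays. Of these, apolpp varied little, with 12.97, 13.09 and 13.09 in the mutants and 13.15, 13.09 and 13.09 in the controls. By their medians both lists were low in mutant replicate 1 and not in mutant replicate 2, unlike the subunits. Of 10 midgut markers 8 were above 0 (median 0.26, from -0.02 to 1.42). LysP and Jon99Ci, 2 of the 10, were higher without overlap, against 6.59% of all gene rows. The array medians were 0.45, 0.07 and 0.26 for the mutants and -0.12, 0.10 and 0.07 for the controls. The part of tissue make-up in the results was not tested.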

How the data were processed

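The deposited values are log2 expression values, 1 for each of 18952 probe sets, which the authors made by RMA (background correction, normalization and summarization), per the labels; GCOS 1.4 is named in the submitters' processing notes. The program that ran it is not given. Between dim probe sets RMA compresses differences. Precision is limited by the number of arrays.

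Probe sets with 1 gene symbol in the platform annotation (13647) were kept. The brightest per gene by the mean over 6 arrays gave 11983 gene rows. Chromosome arms came from a RefSeq gene table (Release 6 plus ISO1 MT), which held 13544 of those probe sets. No genome build is named for the values, so no coordinates are printed.

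Mutants and controls were compared with limma 3.58.1 in R 4.3.3 (lmFit and eBayes, two-sided), with Benjamini-Hochberg adjustment across every gene row and a threshold of 0.05. Standard errors are limma's moderated ones. The fit was tested on simulated data. Plots used Python 3.11.15 and matplotlib 3.10.9. The named genes are all X-linked members, in each complex the 4 autosomal members with the smallest p and the brightest one, the 4 brightest paralogs, and the 3 genes with the smallest p in each mitochondrial list. The members and lists were chosen with earlier results of these data known, so no list is tested. Lists with 10 sets of genes were used, 5 of them tissue markers. Other settings were the choice of probe set, a filter on dim genes, 2 further normalizations, the variance model, array weights, a replicate block and leaving out each array.

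Replicate numbers were not used as pairs in the main fit. The correlation of deviations from the group mean between arrays of the same number was 0.19, -0.27 and 0.11. Between arrays of different numbers it ran from -0.36 to 0.25. With 3 arrays in each group these values cannot decide whether the numbers pair the samples.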

Additional observations from a re-analysis of the deposited data

How the results depend on the processing

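The 8 medians of complexes and sets stayed below 0 in every setting tried. Leaving out single arrays gave -0.32 to -0.15 for autosomal complex I, -0.24 to -0.08 for complex II, -0.32 to -0.08 for complex III, -0.22 to -0.13 for complex IV and -0.24 to -0.13 for complex V. The ranges were -0.29 to -0.14 for all autosomal subunits, -0.63 to -0.53 for X-linked subunits and -0.73 to -0.26 for the paralogs. The count of lower genes at the adjusted threshold (0 with all arrays) was 0 to 15 without single arrays, the 15 without mutant replicate 2, and 19 with array weights (8.45% of all gene rows). Those weights were 0.415, 0.175 and 3.15 for mutant replicates 1, 2 and 3, so the mutant mean then rests mainly on mutant replicate 3. At the unadjusted threshold the count of 16 was 34 with array weights and 9 to 29 without single arrays, lowest without control replicate 1 (9) and control replicate 2 (10). The replicate block gave 10 at that threshold and 0 at the adjusted one. Whether the replicate numbers pair the samples is not known. Genes without overlap numbered 35 to 51 lower and 0 to 1 higher without single arrays, but groups of 2 against 3 overlap less often by construction. Among the 37 members named by rule, differences turned in direction for SdhBL without mutant replicate 3 (0.13) or control replicate 1 (0.08), range -0.42 to 0.13, for SdhB without control replicate 3 (range -0.10 to 0.40), for Cyt-c1 without mutant replicate 2 (range -0.31 to 0.02) and for UQCR-11 without mutant replicate 1 (range -0.01 to 0.24); the cause was not tested. Among the other members, leaving out single arrays turned ND-51 (0.03 without mutant replicate 2), ND-39 (0.02 without control replicate 1), SdhCL (0.09 without mutant replicate 1) and COX6AL2 (-0.41 without mutant replicate 2, -0.03 without control replicate 1 and -0.05 without control replicate 2). COX4 came to 0.00 without mutant replicate 2 and was then no longer below 0. The median of the carrier and import list was -0.22 without control replicate 3 (-0.22 to -0.03 over single arrays) and that of the midgut markers 0.09 without control replicate 1 (0.09 to 0.34). Salivary glue markers ranged from -3.41 to 0.45, with 0.45 without mutant replicate 1. With each array centred on autosomal genes the median over all members was -0.34 and with quantile normalization -0.30.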

Other observations

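ATPsynbeta, the catalytic subunit of ATP synthase, lies on chromosome 4 and was outside the rule. Its brighter probe set had 13.02, 13.21 and 13.00 in the mutants and 13.06, 13.16 and 12.98 in the controls, a difference of 0.01 (SE 0.13). Its second probe set had 10.60, 10.52 and 10.61 in the mutants and 11.02, 10.98 and 11.07 in the controls, a difference of -0.45 (SE 0.12), without overlap. The probe sets of this gene thus disagree. The gene blw (2R), which encodes the alpha subunit beside it, had a difference of -0.03 (SE 0.17).

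For 5 members a further probe set exists. The 3 probe sets of ND-ACP had -0.31, -0.34 and -0.36, the 2 of ND-B17 -0.23 and -0.31, and the 2 of ATPsyngamma -0.11 each. The bright probe sets of COX7B had -0.15 and -0.19 and its dim one 0.12. COX7C had -0.21 on its bright probe set, while its dim one, with 5.51, 7.27 and 6.19 in the mutants and 6.69, 6.46 and 7.15 in the controls, was ordered over the mutant arrays like the testis-type paralogs.

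Probe sets that stand for more than 1 gene were left out, among them those shared by COX6B and CG18809, by ATPsynG and beat-Vb, by ND-AGGG and CG40472 and by COX6AL2 and Ir75d. The first had 12.28, 12.46 and 12.49 in the mutants and 12.96, 12.88 and 12.85 in the controls, a difference of -0.49, and the second a difference of -0.26, both without overlap. That of ND-AGGG, a complex I subunit gene, had a difference of -0.03 with overlapping groups. The dim one of COX6AL2 had -0.35, without overlap, against 0.02 for the probe set of that paralog alone.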
